A study of Homo sapiens with 12 samples.

Results

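The comparison described here sets Ls174T cells depleted of BRG1 against Ls174T cells given a non-targeting siRNA pool (si control). It rests on 2 of the 12 dual-color arrays of the series, chosen by their titles, with 1 array per condition. The series asked how far MLLT10/AF10, BRG1, and p300 are each required for transcription driven by TCF4/β-catenin in Ls174T and HEK293T cells. Ls174T is a human colorectal cancer line with constitutive Wnt signaling, and HEK293T is a human embryonic kidney line in which the pathway is intact and was switched on with Wnt3A medium. Both conditions were transfected with siRNA at 15 nM and harvested at 72 h, no further treatment is listed for them, and the siRNA against BRG1 was a pre-designed pool whose sequences are not shown here. The RNA of each condition was labeled with Cy3 and hybridized together with human reference RNA in Cy5, so that each value is a log2 ratio of sample to reference and a change is the ratio on the si BRG1 array minus the ratio on the si control array. Since there is 1 array per condition no test between conditions was possible, and the error given with a change is that of the image analysis program, combined over both arrays, which leaves out the spread between cultures.

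BRG1, the product of SMARCA4, is an ATPase that moves and evicts nucleosomes as the motor of the SWI/SNF (BAF and PBAF) chromatin remodeling complexes. BRM, the product of SMARCA2, is its paralog and the alternative motor of the same complexes, and BRG1 has been described as a partner of β-catenin at Wnt target genes. SWI/SNF complexes act at enhancers and promoters of many genes besides those of the Wnt pathway.

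All 15 markers of colorectal epithelium that were looked up, and all 6 markers of mucin-producing epithelium, were well above background on both arrays, which means that the program called the sample signal clear of the local background. Their median log2 ratio to the reference was 3.05 and 2.15 on the si control array and 2.44 and 1.73 on the si BRG1 array. Among the endothelial markers 1 of 5 was above background on the si control array and 4 of 5 on the si BRG1 array, with TEK below it on both. Fibroblast markers were above background for 5 and 6 of 7 probed genes, with COL3A1 below it on both arrays, and hematopoietic markers for 5 and 7 of 8, with SPI1 below it on both. The si BRG1 array was the brighter of the pair, with a median sample signal of 3.47 times the local background against 2.27 times on the si control array.

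The slide that carried each array bears on every value below. The si control and si MLLT10 arrays of Ls174T lay on one slide, and the si BRG1 and si p300 arrays lay on another, so a difference between these slides and an effect of the BRG1 siRNA cannot be told apart in the main comparison. The reference channel, which held the same RNA on every array, differed between the si BRG1 and si control arrays with an SD of 0.45 on the log2 scale over features well above background. Its SD was 0.10 between the si MLLT10 and si control arrays and 0.15 between the si BRG1 and si p300 arrays, which shared a slide. The values of the si MLLT10 and si p300 arrays are therefore given beside those of the pair, and so is the change of the sample channel taken alone, without the reference. Between the si BRG1 and si control arrays the sample channel alone had an SD of 0.505 and the log2 ratio one of 0.33. The sample channel alone is thus the more variable measure, and where it and the ratio differ neither is taken as the true change.

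In total, 27722 features were well-measured, that is, brighter than 2-fold the local background in either channel on both arrays. Of these, 1070 (3.86%) were higher past 2-fold after BRG1 depletion and 389 (1.4%) lower. Past 1.5-fold there were 2189 higher (7.9%) and 1366 lower (4.93%). Most of the higher features were dim. When only the 24943 features with a sample channel well above background on both arrays were counted, 191 (0.766%) were higher and 214 (0.858%) lower, so that the share of higher features went from 73.3% to 47.2%. Of these 191 higher features, the sample channel alone was higher past 1.5-fold in 186, and of the 214 lower features it was lower past 1.5-fold in 120. In 109 of the 214 lower features, and in 19 of the 191 higher ones, the reference channel itself had changed by more than 1.5-fold between the arrays. The median change over all well-measured features was −0.02, with −0.58 at the 5th and 0.84 at the 95th percentile. By gene, as the mean of its probes, 3.41% of 13283 measured genes were higher and 1.25% lower past 2-fold, and among the 12129 genes well above background 3.51% were higher and 3.58% lower past 1.5-fold. Against the si p300 array of the same slide, 380 of 30002 features (1.27%) were higher and 304 (1.01%) lower past 2-fold.

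The siRNA target was lower on each of its probes. On the probe A_23_P39034 SMARCA4 had a log2 ratio of −0.66 on the si control array, −0.60 on the si MLLT10 array, −0.33 on the si p300 array, and −3.19 on the si BRG1 array. The other 2 probes gave −0.22 and 1.47 on the si control array and −2.70 and −0.78 on the si BRG1 array. The changes were −2.53 (program error 0.42), −2.48 (0.38), and −2.24 (0.34), which leaves 17.3%, 17.9%, and 21.1% of the si control level. The si BRG1 array was the lowest of the 4 on each probe.

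The remaining SWI/SNF genes stayed near their control level. Of 23 measured subunit genes, SMARCA4 was the 1 lower past 1.5-fold, and none was higher past 1.5-fold, beside 4.38% and 7.45% of all 13283 genes measured. SMARCA2, the paralogous ATPase, has 2 probes, which changed by −0.39 (program error 0.36) and 0.03 (0.31). The other subunits, as means over their probes, ran from −0.29 for BCL7B to 0.45 for DPF2, with SMARCC1 at −0.22, ARID1A, the subunit that defines BAF, at 0.13, and PBRM1, which defines PBAF, at 0.04. SMARCC2, a core scaffold subunit, gave 0.76, −0.34, and 0.10 on its 3 probes, which do not agree among themselves. Among 24 other ATP-dependent remodelers the median was −0.03. SMARCA1, an ISWI ATPase, stood out at 3.97, but its signal was not well above background on the si control array, and its ratio on the si p300 array of the same slide was only 0.37 lower than on the si BRG1 array.

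A small set of transcripts set the si BRG1 array apart from every other Ls174T reference array. Of 24648 features well above background on all 4 arrays, 24 (0.0974%) were lower past 2-fold and 15 (0.0609%) were higher past 2-fold on the si BRG1 array than on each of the other 3. The 17 lower features with a symbol belong to 10 genes. SMARCA4 accounts for 3 of them, and RPL10, which encodes a protein of the large ribosomal subunit, together with its retrogene RPL10L, for 5. The RPL10 and RPL10L probes lay between −0.28 and −0.01 on the si control array, between −0.36 and −0.11 on the si MLLT10 array, between −0.31 and −0.01 on the si p300 array, and between −2.24 and −1.87 on the si BRG1 array. Their changes ran from −2.05 to −1.80, nearly as large as those of the siRNA target itself. The sample channel alone gave −1.91 to −0.93 for the same probes, while their reference channel was higher by 0.10 to 0.95. RPL10 and RPL10L are near-identical in sequence, so the values of single members of this pair are uncertain. Several of the lower features without a symbol had nearly the same values, for example −0.14 on si control and −2.10 on si BRG1.

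No other ribosomal protein gene moved in this way. Over 176 probes of 78 other ribosomal protein genes the changes lay between −0.43 and 0.40 with a median of 0.08, and 0 passed 2-fold in either direction. ZYG11B, a substrate receptor of a cullin ubiquitin ligase, was the next gene with several probes. Its 3 probes had log2 ratios of −1.38, −0.42, and −0.47 on the si control array and of −2.87, −1.73, and −1.67 on the si BRG1 array. The changes were −1.49 (program error 0.41), −1.31 (0.33), and −1.20 (0.33), and the si p300 values of −1.46, −0.25, and −0.20 lay with the si control values. SCD, the desaturase that makes monounsaturated fatty acids, went from 2.15 to 0.66 on 1 probe and from 2.58 to 0.99 on another, with changes of −1.5 (program error 0.35) and −1.59 (0.39). OGDHL, a paralog of the oxoglutarate dehydrogenase of the citric acid cycle, went from −3.82 to −5.19, CLDN14, a tight junction claudin, from 0.59 to −0.61, and DIO3, which inactivates thyroid hormone, from 3.61 to 2.07. MYH1, a muscle myosin, was lower by ratio (−1.63), but its sample channel alone changed by 0.16 and its reference channel by 1.76.

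The 15 higher features held 5 with a symbol. EDN2, the peptide endothelin 2, had log2 ratios of 0.84, 0.54, and 0.87 on the si control, si MLLT10, and si p300 arrays and 2.50 on the si BRG1 array, a change of 1.66 (program error 0.38). CELA3B, a pancreatic elastase, went from −1.29 to 0.87 with −1.47 and −1.83 on the other arrays, a change of 2.16 (program error 0.33). PHLDA3, an AKT inhibitor and p53 target, went from −0.07 to 1.45, a change of 1.52 (program error 0.32). HGD, an enzyme of tyrosine breakdown, and PKDCC, a secreted kinase, changed by 1.19 and 1.17. In each of these 5 genes the sample channel alone was higher as well, by 1.25 to 2.58.

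**Figure D1:**
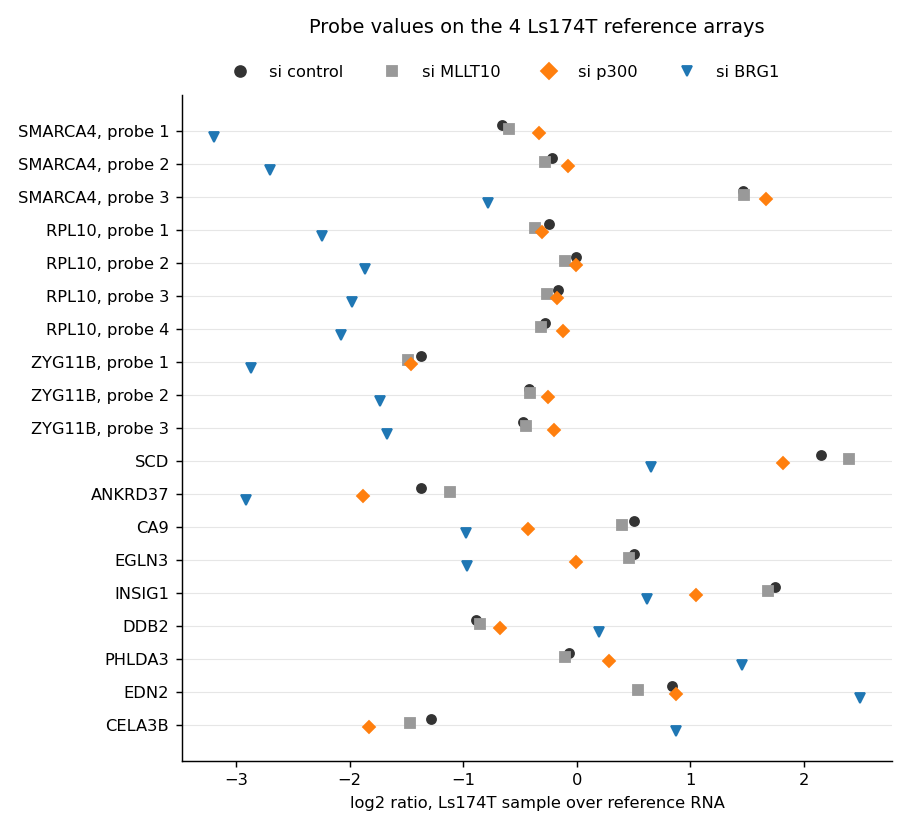
Log2 ratio of sample over reference RNA (horizontal axis) for single probes of 12 genes on the 4 Ls174T reference arrays, 1 point per array. On the SMARCA4, RPL10, and ZYG11B probes the si BRG1 points lie more than 1 unit to the left of the other 3, and on EDN2 and CELA3B more than 1 unit to their right, while for CA9 and INSIG1 the si p300 points lie between si BRG1 and si control.

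Genes induced by hypoxia, among them those of glucose uptake and glycolysis, were nearly all lower. In low oxygen the HIF factors are stabilized and bind the core sequence ACGTG, and their targets include carbonic anhydrase 9, the prolyl hydroxylase EGLN3, and the angiogenic factor VEGFA. Of 29 measured genes of this list, 28 were lower than in si control, 15 were lower past 1.5-fold, and 0 were higher past 1.5-fold, with a median of −0.60 beside −0.01 over all genes. The median was −0.32 when the background was corrected by normexp and the channels by loess. The share of all genes that was lower past 1.5-fold was 4.38%. Past 2-fold there were 4 genes, ANKRD37, CA9, EGLN3, and HK2, beside 1.25% of all genes.

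ANKRD37, an ankyrin-repeat protein and HIF target, had log2 ratios of −1.38 on the si control array, −1.11 on si MLLT10, −1.88 on si p300, and −2.91 on si BRG1, a change of −1.54 (program error 0.42). CA9 had 0.50, 0.40, −0.43, and −0.98 on the same arrays, a change of −1.48 (program error 0.31). EGLN3 had 0.50, 0.46, 0.00, and −0.97, a change of −1.47 (program error 0.30). In these 3 genes the si BRG1 array was lowest and the si p300 array came next. HK2, the hexokinase that commits glucose to glycolysis, changed by −1.18 and −0.94 on 2 probes, and PDK1, which holds pyruvate back from mitochondria, by −1.01 on the probe with the larger change. VEGFA was lower on 4 probes, by −1.17, −1.03, −0.86, and −0.80. NDRG1, a stress-responsive gene, was split, with −1.20 (program error 0.45) on 1 probe and −0.18 (0.32) on the other. Further members by their mean over probes were PFKFB4 (−0.93), BNIP3 (−0.81), P4HA1 (−0.72), BNIP3L (−0.69), KDM3A (−0.67), ADM (−0.65), and LDHA (−0.60). Several glycolytic enzymes lay closer to 0, with ENO1 at −0.21, ALDOA at −0.17, GPI at −0.08, and TPI1 at −0.03, and in the sample channel alone these 4 were higher, by 0.07 to 1.46.

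The hypoxia genes were also lower in the sample channel alone and within the slide. Their median change was −0.57 in the sample channel alone and −0.02 in the reference channel. Against the si p300 array, which lay on the same slide, 28 of the 29 genes were lower on the si BRG1 array, 11 of them past 1.5-fold, with a median of −0.44. In that contrast 3.37% of all genes were lower past 1.5-fold. On the si MLLT10 array the list had a median change of 0.04, and on the si p300 array of −0.10.

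The promoters of 25 of the 29 hypoxia genes are held in the RefSeq table used here (GRCh38.p14, from 250 bases before to 50 bases after the start of transcription). The letters ACGTG, read on both strands, were present in 16 of these 25 (64.0%), beside 31.7% of the windows of 10692 genes that were also measured on the arrays and 24.9% of all 27305 windows. The median change was −0.54 in the 16 genes with the letters and −0.49 in the 9 without, values that lie close together. The stretches around the letters are shown for 3 of the 16 genes that hold them, each 5′ to 3′ along the transcribed strand, with ACGTG or its reverse complement CACGT in capitals. Where both overlap they read CACGTG. They come from chr9:35673850-35673974, strand + (CA9), chr4:185396619-185396762, strand + (ANKRD37), and chr2:172556013-172556139, strand + (PDK1). EGLN3, whose decrease was among the largest of the list, has no such letters in its window. A match is a description of the sequence and not evidence of binding.
CA9: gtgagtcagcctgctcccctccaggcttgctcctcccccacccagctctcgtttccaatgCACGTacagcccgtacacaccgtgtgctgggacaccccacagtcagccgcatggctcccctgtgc
ANKRD37: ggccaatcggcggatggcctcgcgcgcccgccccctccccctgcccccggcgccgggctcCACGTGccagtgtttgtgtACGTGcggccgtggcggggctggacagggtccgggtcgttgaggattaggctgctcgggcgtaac
PDK1: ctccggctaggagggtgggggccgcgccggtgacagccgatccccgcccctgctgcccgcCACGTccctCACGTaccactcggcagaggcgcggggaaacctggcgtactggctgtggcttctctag
CA9 holds 1 such match at 18 bases before its start of transcription, ANKRD37 holds 3, of which 2 overlap, and PDK1 holds 2.

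Genes of cholesterol synthesis were lower as a group, by smaller amounts. These genes are switched on by SREBP2 when sterols run low, and INSIG1, itself a target, holds that factor back in the endoplasmic reticulum. Of 25 measured genes 22 were lower, 7 past 1.5-fold, and 0 were higher past 1.5-fold, beside 4.38% and 7.45% of all genes, with a median of −0.47. INSIG1 had log2 ratios of 1.74 on si control, 1.68 on si MLLT10, 1.05 on si p300, and 0.62 on si BRG1, a change of −1.12 (program error 0.34). MSMO1, a sterol demethylating oxidase, went from 2.12 to 1.20 with 1.73 on si p300, a change of −0.92 (program error 0.36). HMGCS1, which makes HMG-CoA, changed by −0.80 and −0.52 on its 2 probes, and IDI1, an isoprenoid isomerase, by −0.70. In the sample channel alone the median of the list was −0.44. The median change on the si p300 array against si control was −0.22, and the si BRG1 array lay below the si p300 array by a median of 0.20, with 23 of 25 genes lower and 1 lower past 1.5-fold, beside 3.37% of all genes. The letters TCACNCCAC, a core of the sterol response element, were found in 1 of 18 promoters of the list and in 1.51% of those of all measured genes, and none is shown.

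Several p53 targets were higher after BRG1 depletion. p53 is a transcription factor activated by DNA damage and other stress, and its targets arrest the cell cycle, repair DNA, or promote cell death. Of 27 measured genes in a list of p53 targets and inhibitors of cyclin-dependent kinases, 20 were higher and 6 were higher past 1.5-fold, beside 7.45% of all genes, and 0 were lower past 1.5-fold. The 6 were the p53 targets PHLDA3, DDB2, TP53INP1, GDF15, FDXR, and BTG2. No kinase inhibitor gene passed 1.5-fold as a mean over probes, and they lay on both sides of 0, from −0.46 for CDKN1C to 0.54 for CDKN1A. The median was 0.20 in the ratios and 0.31 in the sample channel alone. Besides PHLDA3, DDB2, a sensor of UV damage, went from −0.89 on si control to 0.20 on si BRG1, with −0.86 on si MLLT10 and −0.67 on si p300, a change of 1.09 (program error 0.30). GDF15, a stress cytokine, went from 0.34 to 1.21 with 0.07 on si p300, a change of 0.86 (program error 0.31), and FDXR, which feeds electrons to mitochondrial cytochromes, changed by 0.77 (program error 0.30). BTG2, which restrains proliferation, changed by 0.72 (program error 0.29). In DDB2, GDF15, FDXR, and BTG2 the si BRG1 array was the highest of the 4. TP53INP1 changed by 1.04 (program error 0.38), but the si p300 array was within 0.14 of it.

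CDKN1A, which encodes the CDK inhibitor p21, has a probe printed in 9 spots, with log2 ratios of −0.14 on si control, 0.08 on si MLLT10, −0.09 on si p300, and 0.49 on si BRG1. Its change was 0.63 (program error 0.29), and a second probe changed by 0.44 (0.37). Against the si p300 array 7 of the 27 genes were higher past 1.5-fold on the si BRG1 array, beside 4.07% of all genes, and 2 were lower, CDKN2C (−1.15) and CDKN2D (−1.78), whose ratios on si BRG1 lay near those of si control.

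**Figure D2:**
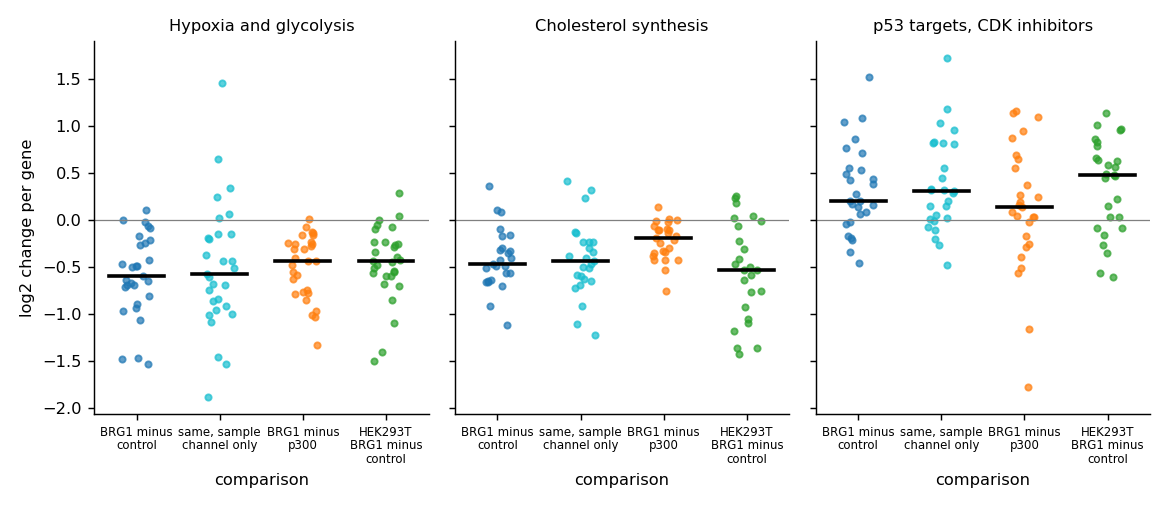
Log2 change of each gene (points) and list median (bars) for 3 gene lists in 4 comparisons: si BRG1 minus si control, the same with the sample channel only, si BRG1 minus si p300 on the same slide, and si BRG1 minus si control in HEK293T cells with Wnt3A. The medians of the hypoxia list lie between −0.60 and −0.43 and those of the cholesterol list below 0 in every comparison, while those of the p53 list lie above 0.

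Genes of DNA replication and mitosis stayed within 1.5-fold of si control. Of 39 measured genes 33 were lower and 6 higher, and the median was −0.17. None passed 1.5-fold in either direction, beside 7.45% of all genes higher and 4.38% lower. The lowest were CCNA2, the S-phase cyclin (−0.39), the helicase subunit MCM7 (−0.36), and the mitotic checkpoint kinase BUB1 (−0.34). Their program errors were 0.30, 0.33, and 0.29. On the si p300 array the list was higher (median 0.18 against si control), and 36 of 39 genes were lower on si BRG1 than on si p300, with a median of −0.39.

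Wnt/TCF4 targets did not move as a group after BRG1 depletion. Of 30 measured genes 16 were higher and 14 lower, 2 and 3 of them past 1.5-fold, with a median of 0.02, beside 7.45% and 4.38% of all genes. NOTUM, a secreted deacylase that inactivates Wnt, had log2 ratios of −2.34, −2.18, −1.54, and −1.45 on the si control, si MLLT10, si p300, and si BRG1 arrays, a change of 0.89 (program error 0.39). PROX1, a homeobox factor, changed by 0.81 (program error 0.37). The Wnt-induced factor SP5 changed by 1.02, 1.00, and −0.52 on 3 probes, of which the sample channel alone gave 1.16, 1.19, and 1.18, and ETS2 by 0.74, 0.44, and 0.01. NOTUM on si p300 lay within 0.10 of si BRG1, and SP5 was higher on si p300 than on si BRG1 on the 2 probes with an increase. Lower past 1.5-fold were OLFM4 (−0.62, program error 1.20), TNFRSF19 (−0.77, not well above background on both arrays), and MYC (−0.60).

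MYC, the growth-promoting factor, was measured on a probe with 10 spots. Its log2 ratio was 0.07 on si control, −0.21 on si MLLT10, −0.53 on si BRG1, and −1.19 on si p300, so that its level after BRG1 depletion lay between those of si control and si p300. Several other targets had a lower ratio and a higher sample channel. AXIN2, a feedback inhibitor of the pathway, gave 0.01 on 1 probe and −0.79 on another, for which the sample channel alone gave −0.02 and 0.29. ASCL2, the stem cell factor, gave 0.04 and −0.86, and its sample channel alone 0.93 and 1.03. EPHB3 changed by −0.40 by ratio and by 0.22 in the sample channel. LGR5, the receptor that marks crypt stem cells, was close to its control level at 0.10 (program error 0.47), and RGMB changed by 0.24 (0.41). EPHB2 and SMOC2 were lower by ratio and changed by 0.36 and 0.69 in the sample channel, while their reference channel changed by 0.85 and 1.09. The direction of AXIN2, ASCL2, EPHB2, EPHB3, and SMOC2 after BRG1 depletion, taken as gene means, thus turned with the channel used.

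Enterocyte and goblet cell genes had lower ratios than in si control as groups, while their median in the reference channel was higher. Of 21 measured enterocyte genes 11 were lower past 1.5-fold, beside 4.38% of all genes, and 2 were higher, LCT and CA2, neither of them well above background on both arrays. The median was −0.65, but it was −0.10 in the sample channel alone, the reference channel was higher by a median of 0.34, and against the si p300 array the same genes had a median of 0.12. The si p300 array gave a median of −0.56 against si control. Single genes differed from si p300, and 4 of 23 enterocyte genes were higher past 1.5-fold on si BRG1 than on si p300 and 1 lower, beside 4.07% and 3.37% of all genes. CDH17, an intestinal cadherin, was 1.73 higher on the log2 scale than on si p300 and FABP1 0.86. In SLC5A1, an apical glucose transporter, the ratio changed by −1.04 and the sample channel by 0.33. KRT20, the keratin of differentiated colonic epithelium, was lower in both. Its log2 ratios were 4.41 on si control, 4.82 on si MLLT10, and 2.20 on si BRG1, with a sample channel change of −1.37. The KRT20 spot on si p300 did not pass the filter, so no value is given for it. CEACAM6 (−1.18) and the fatty acid carrier FABP1 (−1.03) were also lower in the sample channel (−1.1 and −0.95), and FABP1 was lower still on the si p300 array.

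The goblet and secretory list also had lower ratios. Of 30 genes 9 were lower past 1.5-fold, beside 4.38% of all genes, with a median of −0.35, and the sample channel alone gave −0.02. Against si p300, 7 of 30 were higher past 1.5-fold on si BRG1, beside 4.07% of all genes, and 0 were lower, with ZG16, a goblet cell lectin, at 2.21, AGR3 at 1.5, and MUC13 at 1.41. RETNLB, a goblet cell peptide, had the lowest ratio of the list at −2.38, with a sample channel change of −0.04 and a reference channel change of 2.30. ST6GALNAC1, which sialylates mucins, was lower in both, by ratio −1.19 (program error 0.43) and in the sample channel −1.34, with the si p300 array lower still at 1.14 beside 1.79 on si BRG1 and 2.98 on si control. KLF4, a factor of goblet cell differentiation, changed by −0.80 (program error 0.40), and MUC13, a membrane mucin, by −0.84 by ratio and −0.03 in the sample channel.

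**Figure D3:**
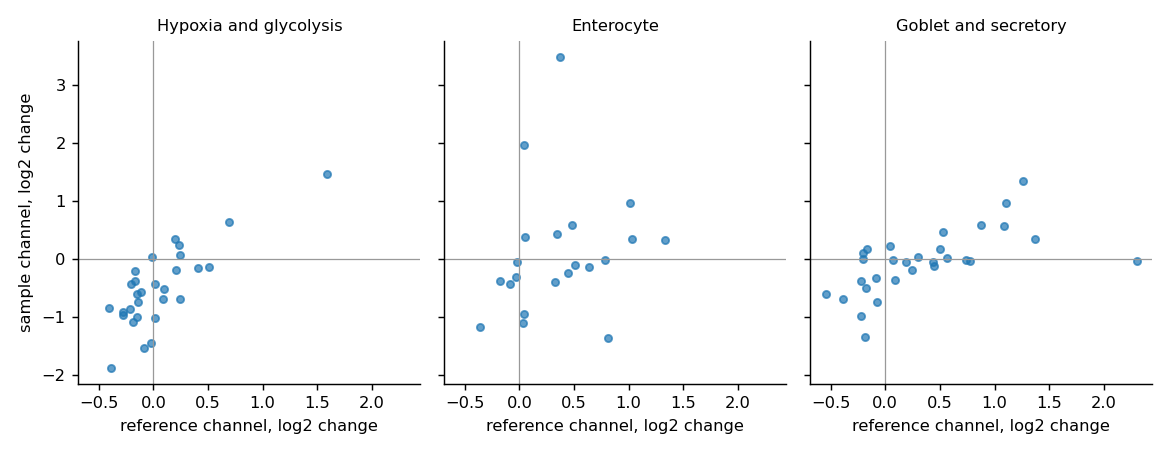
Log2 change of the sample channel (vertical axis) against that of the reference channel (horizontal axis), si BRG1 minus si control, 1 point per gene, for 3 gene lists. The hypoxia genes lie mainly below 0 on the vertical axis with the reference near 0, whereas many enterocyte and goblet genes, RETNLB at 2.30 among them, lie to the right of 0 on the reference axis with the sample channel near 0.

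The other lists held fewer or less even changes. Interferon-stimulated genes had a median of 0.16, with 8 of 36 higher past 1.5-fold and 1 lower, beside 7.45% and 4.38% of all genes, but 35 of 36 were lower on si BRG1 than on si p300, with a median of −0.37. IFI6, for example, had 0.10 on si control, 0.76 on si MLLT10, 0.91 on si BRG1, and 2.19 on si p300. Metallothioneins, which bind zinc and copper, were all higher (10 of 10, median 0.36), 0 of them past 1.5-fold, beside 7.45% of all genes. The si p300 array gave the same level, with a median difference of −0.01. Among 23 NRF2 targets the median was 0.01. AKR1B10, an aldo-keto reductase, changed by −1.33 and −1.25 on its 2 probes but was lower still on si p300, and after normexp and loess these values turned to 0.65 and 0.72, while the ferritin gene FTH1 was higher on 5 probes, by 0.44 to 0.75.

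Immediate early genes had a median of −0.15, with FOS at −1.07 (program error 0.55; 0.29 after normexp and loess), JUNB at −0.81 and −0.49 on 2 probes, and JUN at 0.78 (program error 0.33) on a probe with 10 spots. JUN stood higher on si BRG1 (−0.84) than on si control (−1.62), si MLLT10 (−1.60), and si p300 (−1.74). Among TGF-beta and BMP response genes the median was −0.01, with ID1, an inhibitor of differentiation factors, changing by 0.74 (program error 0.30) to the same level as on si p300 (−0.05 and −0.03). Adhesion, junction, and matrix genes had a median of 0.02, with 7 of 44 higher and 4 lower past 1.5-fold, beside 7.45% and 4.38% of all genes. CLDN2, a pore-forming claudin, had the largest change of the list at −2.47 (program error 0.79), with −0.41 in the sample channel alone and 2.02 in the reference channel, and the desmosomal PKP2 changed by −0.90 (0.41). The basement membrane collagen COL4A1 went from −3.40 to −2.12, a change of 1.28 (program error 0.47), with −2.20 on si p300, and COL4A2 changed by 0.73 (0.46). The collagenase MMP1, on a probe with 10 spots, changed by 1.01 (0.86). LAMA3, a laminin chain, changed by 0.75 (0.30).

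Genes that have been described as dependent on BRG1 or BRM in other cells were not lower as a group. Of 14 measured genes 3 were higher past 1.5-fold, 1 of them well above background on both arrays, and 0 were lower, beside 7.45% and 4.38% of all genes, with a median of 0.12. CD44 changed by −0.01 and CDH1, which encodes E-cadherin, by −0.29. CAV1, of the caveolar coat, was split between −1.1 on 1 probe, which turned to 1.40 after normexp and loess, and 0.31 on another with 10 spots. CEACAM1, an adhesion molecule, changed by 1.31, 0.61, and 0.53 on 3 probes, and on 2 of these the si p300 array gave nearly the same value. Keratin and cytoskeleton genes had a median of −0.10. KRT80 went from −2.02 to −1.01 with −2.60 on si p300, and the calcium-binding protein S100P changed by −1.18. Among 15 reference transcripts 1 was lower past 1.5-fold, PGK1, which is also a glycolytic HIF target, with −0.68, −0.65, and −0.58 on its 3 probes. PPIA on its 10-spot probe changed by −0.16 and B2M by 0.21.

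**Figure D4:**
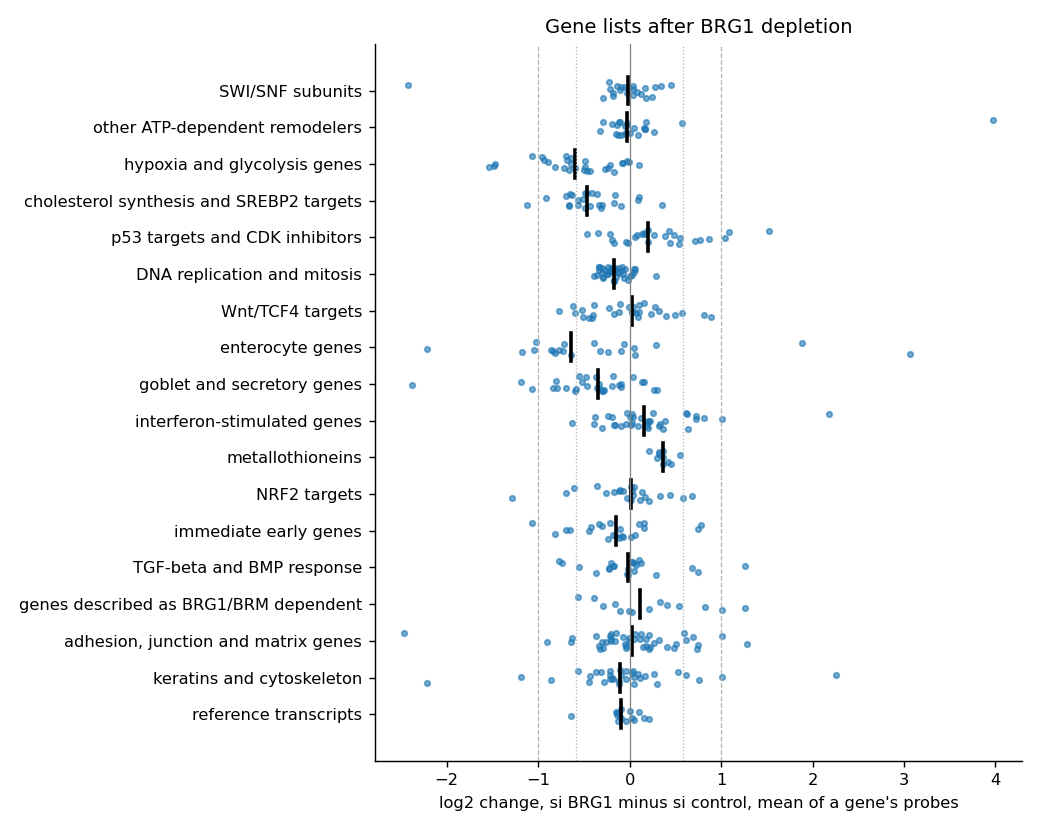
Log2 change of each measured gene, si BRG1 minus si control, as the mean of its probes (points), with the median (black bar), for 18 gene lists. Dashed lines mark 2-fold and dotted lines 1.5-fold. The hypoxia (median −0.60), cholesterol (−0.47), and enterocyte (−0.65) lists lie to the left of 0, the metallothioneins (0.36) and p53 targets (0.20) to the right, and most other medians near 0.

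Many of the single genes with the largest changes also differed from si control on the neighboring si p300 array. Both changes subtract the same si control array and cross the same slides. A change shared by both siRNAs therefore cannot be told apart from a difference of the slide or the si control array. They were taken from probes well above background on both arrays whose sample channel moved the same way past 1.5-fold, 12 genes in each direction. Among the 12 increases, 6 were also more than 2-fold higher on si p300 than on si control. Within the slide, 4 were more than 2-fold higher on si BRG1 than on si p300, beside 1.27% of all features. That contrast reuses the si BRG1 values by which the genes were picked, so part of the excess follows from the choice. C1QTNF5, a secreted C1q-domain protein, went from −0.10 to 2.18 and stood at 2.19 on si p300, a change of 2.28 (program error 0.36). CYBRD1, a ferric reductase of iron uptake, changed by 2.07 (0.65) and ABCG5, a sterol exporter, by 1.85 (0.46), with si p300 following within 0.06 and 0.59. UGT2B11, a glucuronosyltransferase, changed by 1.82 (0.31) and lay 1.47 above si p300. DBF4B, APBB1, FGL1, the linker histone H1-2, and LOC100190986 made up the rest, with changes of 1.72, 1.66, 1.59, 1.55, and 1.49, beside EDN2, CELA3B, and PHLDA3. Second probes of DBF4B and APBB1 gave −0.15 and 0.26, so these genes were not higher past 1.5-fold on each of their probes.

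Among the 12 decreases, 8 were also more than 2-fold lower on si p300 than on si control, with the same limit. Another 3 lay more than 2-fold below si p300, SMARCA4, RPL10L, and RPL10, beside 1.01% of all features. The si BRG1 values by which they were picked are reused here as well. DDIT4, an inhibitor of mTORC1 that is induced by hypoxia and other stress, had log2 ratios of 0.25 on si control, 0.23 on si MLLT10, −0.99 on si p300, and −1.79 on si BRG1, a change of −2.04 (program error 0.33). PCK1, the gluconeogenic enzyme, went from 0.69 to −1.27 and was lower still on si p300 at −2.93, while a second probe changed by −1.40 by ratio and −0.01 in the sample channel. FGF21, a metabolic hormone, changed by −2.72 (0.52) and FGG, the fibrinogen gamma chain, by −2.13 (0.90), both to about the level on si p300. KIF1B, a kinesin, changed by −2.41 (0.42), but it was already at −3.35 on the si MLLT10 array beside −0.76 on si control, so that the si control array stood alone, and its other 2 probes changed by −0.11 and 0.09. The keratin-associated genes KRTAP9-2 (−3.91) and KRTAP3-2 (−1.93) were lower by less in the sample channel alone (−0.70 and −0.95), and their reference channel changed by 3.18 and 0.94. KRT20 and OLFM1 (−1.88, and −0.47 on a second probe) completed the set. After normexp and loess the changes of KIF1B, FGG, and OLFM1 turned positive, to 0.45, 0.35, and 0.080. The reference channel changed by more than 1.5-fold in 6 of the 12 decreases and in 1 of the 12 increases.

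Some probes were well above background on 1 of the 2 arrays, 1143 on the brighter si BRG1 array alone and 40 on the si control array alone. For such probes the ratio on the dim side is not a measured level. DIO2, which activates thyroid hormone, was at least 4.76-fold higher after BRG1 depletion, and DCDC2, which binds microtubules, at least 10.4-fold lower. These bounds set the measured array against the higher of the dimmest measured signal and the probe's own signal on the other array, in the sample channel after scaling between arrays, and they lie below the change of the probe's ratio (2.36 for DIO2 and −3.74 for DCDC2). For the other 6 probes with the largest such values the bound exceeded the change of the ratio, so no bound is given. Their ratio changes were 3.02 for SERPINB2, a plasminogen activator inhibitor, 1.66 for TCL1A, 2.20 for the complement regulator C4BPA, −3.52 for the cilium protein CFAP161, −1.70 for the forkhead factor FOXL2, and −1.92 for the raft protein RFTN1. The 4 higher probes had similar ratios on si p300, with differences of −0.05 to 0.21 between si BRG1 and si p300. CFAP161, DCDC2, and FOXL2 were also low on si MLLT10, with log2 ratios of −3.83, −3.96, and −5.67 beside −3.32, −4.33, and −4.14 after BRG1 depletion, so that the si control array stood alone at 0.20, −0.59, and −2.44.

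BRG1 was also depleted in HEK293T cells that received Wnt3A for 9 h, on arrays that are not part of the Ls174T pair. The HEK293T si BRG1 array lay on the slide of the Ls174T si control array, and its own si control array on another slide, so slide and siRNA cannot be told apart there either. In HEK293T cells SMARCA4 changed by −3.96, −4.00, and −3.95 on the same 3 probes, which leaves 6.44%, 6.26%, and 6.46%, a deeper depletion than the 17.3% to 21.1% in Ls174T. The RPL10 and RPL10L probes changed by −4.13 to −3.33, from between 0.17 and 0.64 on the si control array to between −3.80 and −2.73, while the probes of other ribosomal protein genes ran from −1.58 to 0.46 with a median of −0.05. ZYG11B changed by −1.46, −1.21, and −1.39, SCD by −1.20 and −1.44, OGDHL by −1.01, and LIMK1, a kinase of actin turnover, by −2.0 beside −1.07 in Ls174T. TEX19 changed by −2.87 beside −1.67. Of the other genes that set the Ls174T si BRG1 array apart, PHLDA3 was also higher past 1.5-fold in HEK293T, by 0.86. Several more were not changed the same way past 1.5-fold there. EDN2 changed by −2.13, but its signal was not well above background on both HEK293T arrays. PKDCC changed by −1.17, HGD by −0.46, CELA3B by 0.27, DIO3 by 0.47, and CLDN14 by −0.13. Of the 12 largest increases in Ls174T, 1 was higher and 4 were lower past 2-fold in HEK293T. The shares of all features there were 2.38% and 4.41%. Among those 4, EDN2 and UGT2B11 were not well above background on both HEK293T arrays. Of the 8 largest decreases measured there, 3 were lower and 0 higher past 2-fold. These 3 were the siRNA target SMARCA4 and the near-identical RPL10L and RPL10.

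Of 23435 features well above background on all 4 arrays of both lines, 118 (0.504%) were lower past 2-fold in Ls174T and 563 (2.4%) in HEK293T, and 31 were lower in both, 26.3% of the first list and 5.51% of the second. Higher past 2-fold were 163 (0.696%) and 375 (1.6%), with 10 in both, 6.13% and 2.67% of the lists. The 31 shared decreases hold 14 genes with a symbol, and 3 SMARCA4 probes and 5 RPL10 or RPL10L probes are among them. Several features of 1 gene are thus counted separately. Several further features without a symbol changed nearly as the RPL10 probes did, for example by −1.96 in Ls174T and −4.06 in HEK293T. The 31 features had a median difference of −1.47 from the si p300 array, and 20 of them were more than 2-fold below it, beside 1.01% of all features. They were picked by low values on the same si BRG1 array, so part of the excess over that share follows from the choice. The 10 shared increases included the linker histone gene H1-2 (1.55 in Ls174T and 3.03 in HEK293T), the core histone genes H2AC19 (1.34 and 2.35) and H2BC12 (1.06 and 1.97), and RPS27L, a p53 target (1.1 and 1.30). Another 27 features were higher in Ls174T and lower in HEK293T, and 4 the reverse. Of these 27, 26 lay within 1.5-fold of the si p300 array of their own slide. Most genes did so, since 4.07% of all genes were higher and 3.37% lower past 1.5-fold in that contrast. Across all these features the changes in both lines had Pearson's r of 0.115 and Spearman's rho of 0.119, as a description, since features of 1 pair of arrays are not replicates.

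Among the lists, the hypoxia genes were lower in HEK293T as well in 27 of 29, with a median of −0.43 and 8 lower past 1.5-fold, beside 12.7% of all genes. Cholesterol genes had a median of −0.53, with 11 of 25 lower past 1.5-fold, and p53 targets a median of 0.48, with 10 of 28 higher past 1.5-fold, beside 8.09% of all genes. Wnt targets had a median of −0.35, with 8 of 28 lower and 1 higher past 1.5-fold. DDB2 changed by 0.97, PHLDA3 by 0.86, BTG2 by 0.83, and CDKN1A by 0.77 on its 9-spot probe in HEK293T. The order within the lists differed. CA9 (−0.47) and ANKRD37 (−0.55) were lower in HEK293T by less than 1.5-fold, near the list median, and EGLN3 (−0.05) changed little. PFKFB4 (−1.1) and PFKL (−1.5) were lower past 2-fold there. Metallothioneins, which were higher in Ls174T, were lower in HEK293T in 10 of 10 with a median of −0.71, and genes described as dependent on BRG1 or BRM had a median of −1.0 in HEK293T. Whether any of these differences between the lines exceeds the spread between cultures was not tested.

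**Figure D5:**
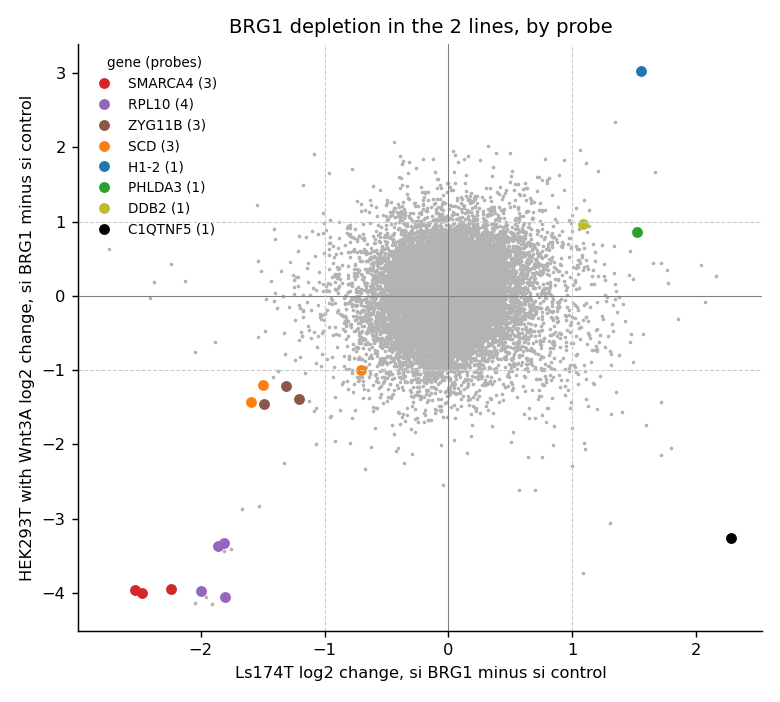
Log2 change after BRG1 depletion in HEK293T cells with Wnt3A (vertical axis) against that in Ls174T cells (horizontal axis), 1 point per probe well above background on all 4 arrays, with dashed lines at 2-fold. The SMARCA4 (−2.53 to −2.24 in Ls174T) and RPL10 probes lie at the lower left, apart from the cloud, ZYG11B lies past 2-fold in both lines, H1-2 is at the upper right, and C1QTNF5 moves in opposite directions.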

How the data were processed

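RNA from Ls174T cells transfected with BRG1 or control siRNA was measured on 1 dual-color Agilent 4x44K array each, with further arrays of the series used only beside that pair. The authors scanned the arrays with the Feature Extraction program (version 10.5.1.1 per the file headers, 8.5.1.1 in the submitters' processing notes), which subtracted background and normalized the dyes. The deposited intensities are median, background, and processed signals per channel, and the deposited log10 ratios are processed Cy5 over Cy3 with the program's error. The value table of the series, also log10 ratios, was deposited and equals the scanner values (largest difference 4.44e-16).

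Here the log10 ratios were turned to sample over reference, converted to log2, and subtracted between arrays. Control spots, outlier flags, and features not above 2 times background in either channel on both arrays were left out. Spots were averaged per probe and probes per gene. RefSeq accessions gave symbols to 74.5% of the features, and the others are unnamed here. No test was made with 1 array per condition. The number of arrays limits the precision. The median combined program error of a change was 0.32, the median SD between spots of 210 probes with at least 5 spots was 0.0449, and no feature was saturated (0 on every array). The sample channel alone is the processed Cy3 signal scaled to the 75th percentile. Bounds used Cy3 signals after loess and Aquantile scaling, without dye swaps, and are printed only where they lie below the change of the ratio. Alternatives were normexp with an offset of 50 and loess (limma 3.58.1, R 4.3.3), other filters, centring, 1.5-fold in place of 2-fold, and other control arrays. Python 3.11.15, pandas 2.3.3, and numpy 2.4.6 were used. The counting step was run on simulated data with noise at the level of the spread between spots. That noise is far below the program error, so the run does not show how reliable the counts past 2-fold are.

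Named genes are SMARCA4, Wnt targets that the study names, the 12 largest changes in each direction among probes well above background whose sample channel moved the same way past 1.5-fold, the 4 largest bounds in each direction, and from each of 18 lists up to 6 members with the largest change and any past 2-fold. Genes outside this rule, such as further list members, RPL10 relatives, and those apart on the BRG1 array, were named after their values were seen. The members and lists were chosen with earlier results of these data known.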

Additional observations from a re-analysis of the deposited data

Results flagged for a closer look

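In 3 of the genes named above, which are a selection from the features that went opposite ways past 2-fold, the change after BRG1 depletion had opposite directions in Ls174T and HEK293T cells on the 1 pair of arrays in each line. C1QTNF5 changed by 2.28 on the log2 scale in Ls174T (program error 0.36) and by −3.26 in HEK293T (0.39). CEACAM1 (probe A_23_P434118) changed by 1.31 (0.37) and −1.59 (0.40). FGL1 changed by 1.59 and −1.74, with larger program errors of 0.89 and 0.87. The difference was not tested, since there is 1 array per condition. In Ls174T these 3 genes stood on the si BRG1 array within −0.22 to 0.15 of the si p300 array on the same slide, and the Ls174T si control and HEK293T si BRG1 arrays shared another slide. PKDCC, also named above, changed by 1.17 in Ls174T and −1.17 in HEK293T, and it lay 1.43 above the si p300 array.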

How the results depend on the processing

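No paired analysis was possible because each condition has 1 array, and leaving out a replicate was not possible for the same reason. The counts of features past 2-fold (1070 higher and 389 lower, 1459 in all) depended on the filter and the background correction. They were 65 and 110 (175 in all, 37.1% higher) with both channels above 2 times background, 191 and 214 (405, 47.2% higher) with the sample channel well above background, 3685 and 1352 (5037) without a filter, 3121 and 1068 (4189) after normexp and loess, and 36 and 118 (154, 23.4% higher) when spoiled local backgrounds were replaced before normexp (chosen after these data were seen). The sample channel alone gave 2589 higher and 2975 in all (87.0% higher), and 1.5-fold gave 2189 and 1366 (3555). The BRG1 array against the p300 array had 684 features past 2-fold, 196 with both channels above background, and 298 with the sample channel well above it. The HEK293T comparison had 1905, 4355 with the sample channel alone, and 748 with both channels. SMARCA4 as a mean was −2.42 and −1.71 after normexp and loess. The hypoxia median was −0.32 after normexp and loess and kept its sign under all alternatives run. With the sample channel alone the medians were 0.31 for p53 targets, 0.14 for Wnt targets, and −0.10 for enterocyte genes, which were −0.22 without a filter and −0.40 with spoiled backgrounds replaced. Of the single probes past 2-fold, after normexp and loess KIF1B (0.45), FGG (0.35), OLFM1 (0.080), CAV1 (1.40), AKR1B10 (0.65 and 0.72), and FOS (0.29) turned positive, as did SLC5A1 (0.33) and ERN2 (0.34) with the sample channel alone and KIF1B (0.18) with the si MLLT10 array as control. The cause was not tested. Of the other values of single genes and lists, 2098 stayed close to the value given and 210 moved, and smaller values that changed sign, as for the Wnt targets with the sample channel alone, are counted among these.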
